A study of Gallus gallus with 12 samples.

Results

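The genes described here encode the replicative helicase and the factors that switch it on: MCM2, MCM3, MCM4, MCM5, MCM6, MCM7, MCM10, CDC45, GINS1 and GINS2. All probe sets that the array's annotation assigns to one of these 10 symbols were taken. That gave 15 probe sets for 7 genes, out of 37693 probe sets and 13008 genes tested. MCM4, MCM7 and GINS2 had no probe set under their symbol in the annotation used and were not analysed here.

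The helicase opens the DNA double strand ahead of the polymerases. Its motor is a ring of the related proteins MCM2 to MCM7, which is loaded onto replication origins in G1 in an inactive form by the origin recognition complex, CDC6 and CDT1. In S phase, kinases let CDC45 and the GINS complex join the ring, MCM10 helps to activate the assembled machine, and it then travels with the replication fork. These functions were worked out mainly in yeast, frog egg extracts and human cells. In the early neural tube, dividing neuroepithelial progenitors replicate their DNA in each cycle, whereas neurons leave the cycle as they form.

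Signals came from 12 Affymetrix chicken arrays in 3 groups of 4, each array a biological replicate. Chick embryos of no stated strain were electroporated inside the egg, in the neural tube, at stages HH10 to HH11, and GFP-positive cells were sorted 6 hours later. Each replicate pooled the neural tubes of 20 embryos. All groups carried GFP. The control group received the vector pGIG-GFP, the NEUROG2 group received pCIGNEUROG2-GFP and the NEUROG2AQ group received pCIGNEUROG2AQ-GFP. NEUROG2, a proneural transcription factor of the basic helix-loop-helix class, promotes a neuronal fate in neural progenitors. NEUROG2AQ is named but not described in the labels, and in other work the name stands for a form altered in its DNA-contacting basic region. The promoter of the vectors is not given in the sources used here. A pool averages over embryos and over all cells with enough GFP to be sorted, so fewer cells of a type and less RNA per cell cannot be told apart in any value below.

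The array medians lay between 2.81 and 2.90 on the log2 scale, and precision is limited by having 4 arrays in each group. The array's chicken NEUROG2 probe set read 5.28 to 6.07 in controls, 3.69 to 4.10 with NEUROG2 and 4.56 to 4.77 with NEUROG2AQ, and whether it detects the plasmid's transcript is not given, so it does not check the labels. Of 12 neural tube markers, 10 were measured, and their mean log2 signal was 8.58 to 8.74 in controls, 7.86 to 8.09 with NEUROG2 and 8.14 to 8.21 with NEUROG2AQ. Control replicate 1 stood apart with a mean somite marker signal of 4.92, against 3.85 to 4.27 on the other controls. It was the highest control for 9 of the 10 measured somite markers. Marker means varied on other arrays too. Control replicate 4 had a blood and endothelium mean of 3.49, against 2.57 to 2.99 on the other controls. Its neural crest mean was 6.75, against 6.38 to 6.42. The somite mean was 4.24, 4.26, 3.81 and 3.89 on NEUROG2 replicates 1 to 4. NEUROG2AQ replicate 4 stood apart in the 3'/5' signal difference of the actin and EF1A control probe sets, a measure of RNA integrity, at 1.52 against 2.03 to 2.14 on the other NEUROG2AQ arrays. The controls read 1.72 to 1.98 and the NEUROG2 arrays 1.59 to 1.90. NEUROG2AQ replicates 1 to 3 were thus the highest of the 12 in this measure and replicate 4 the lowest. The GAPDH control probe sets did not show this split: their 3'/5' difference was 0.42, 0.31, 0.17 and 0.23 on NEUROG2AQ replicates 1 to 4. It was 0.26 to 0.43 on the controls and 0.14 to 0.32 on the NEUROG2 arrays. Values without control replicate 1 or NEUROG2AQ replicate 4 stand beside the helicase results whose call they change. Where they change the size alone, they are given for some genes and not for all.

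The question of the first comparison is which helicase genes differ between cells given NEUROG2 and cells given the control vector. CDC45 was 2.63-fold, MCM10 2.12-fold and GINS1 1.79-fold lower with NEUROG2 than with the control vector, and these 3 of the 7 genes passed the test (limma, adjusted p under 0.05, adjusted over all probe sets). Of all genes, 5.37% passed as lower and 5.21% as higher in this comparison. The ring subunits MCM2, MCM3, MCM5 and MCM6 were 1.13-fold to 1.48-fold lower and did not pass. All 7 fitted differences were below 0, with a median of -0.57 on the log2 scale, while the median of all genes was 0.01 and 6218 of 13008 genes were below 0.

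CDC45, which joins the ring in S phase, gave log2 signals of 7.80, 8.06, 8.21 and 8.06 on control arrays 1 to 4. On NEUROG2 arrays 1 to 4 its signals were 6.79, 6.91, 6.32 and 6.52. On NEUROG2AQ arrays 1 to 4 they were 8.14, 8.14, 8.19 and 7.94. Every NEUROG2 array lay below every other array, and the other groups overlapped. The group means were 8.03 ± 0.17, 6.64 ± 0.27 and 8.10 ± 0.11 (SD, n = 4). CDC45 fell by 1.40 ± 0.13 (SE) on the log2 scale with NEUROG2, with a 95% interval of -1.68 to -1.12 and an adjusted p of 6.23e-06 in limma. With any 1 array left out, the fitted difference stayed between -1.49 and -1.29.

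GINS1 encodes a subunit of the GINS complex, which bridges CDC45 and the ring. Its log2 signals were 8.01, 7.96, 7.82 and 8.01 in controls 1 to 4, 7.40, 7.09, 7.11 and 6.84 with NEUROG2, and 7.85, 7.70, 7.87 and 7.93 with NEUROG2AQ. The NEUROG2 arrays were again the lowest of the 12, with no overlap, and NEUROG2 replicate 1 was the highest of them. GINS1 averaged 7.95 ± 0.089, 7.11 ± 0.23 and 7.84 ± 0.10 (SD, n = 4) in the 3 groups. It fell by 0.84 ± 0.11 (SE) with NEUROG2, with a 95% interval of -1.08 to -0.60 and a limma adjusted p of 0.000219.

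MCM10, which is not part of the ring and acts when it is switched on, was the dimmest of the representative probe sets. It read 4.64, 3.87, 4.58 and 4.07 in controls 1 to 4, 3.37, 3.44, 2.82 and 3.19 with NEUROG2, and 4.42, 3.86, 4.20 and 4.47 with NEUROG2AQ. All 4 NEUROG2 arrays were below all others, and NEUROG2 replicate 3 lay at the level of the array medians. The means were 4.29 ± 0.38, 3.20 ± 0.28 and 4.24 ± 0.28 (SD, n = 4). MCM10 fell by 1.09 ± 0.19 (SE) with NEUROG2, with a 95% interval of -1.49 to -0.68 and a limma adjusted p of 0.00186.

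**Figure D1:**
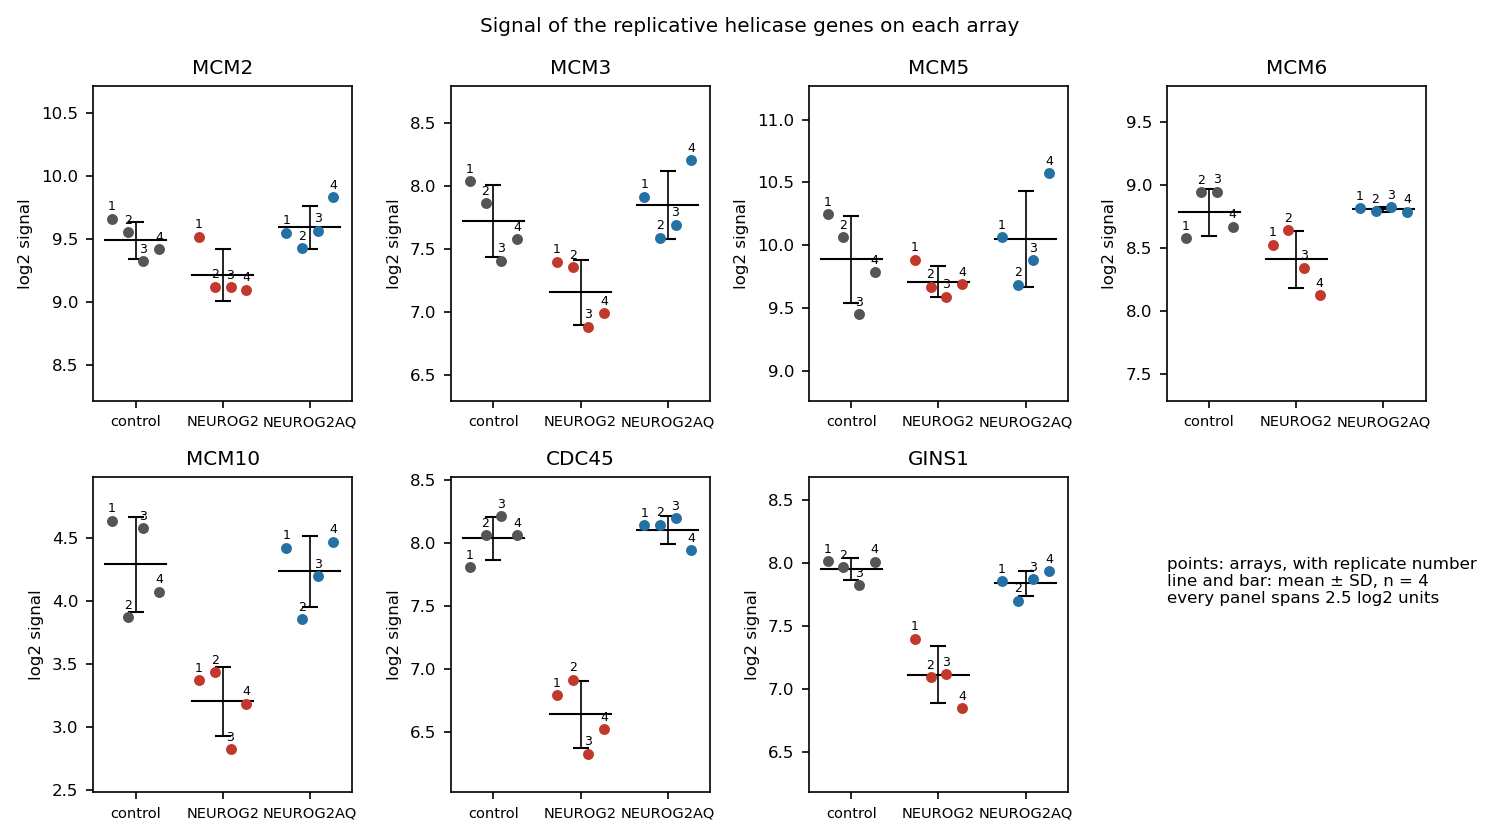
Log2 signal (vertical axis) of the representative probe set of each of the 7 genes on the 12 arrays. Points are arrays with their replicate number, lines and bars are the mean ± SD of 4 arrays, and every panel spans 2.5 log2 units. The NEUROG2 arrays lie below all others for CDC45, GINS1, MCM10 and MCM3, and overlap the control arrays for MCM2, MCM5 and MCM6.

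The ring subunits MCM2, MCM3, MCM5 and MCM6 did not pass against control, although their levels leaned the same way. MCM3 read 8.04, 7.86, 7.41 and 7.58 in controls 1 to 4, 7.40, 7.35, 6.88 and 6.99 with NEUROG2, and 7.91, 7.59, 7.69 and 8.21 with NEUROG2AQ. Every NEUROG2 array was below every control array, but the lowest control and the highest NEUROG2 array nearly touched. The means were 7.72 ± 0.28, 7.16 ± 0.26 and 7.85 ± 0.27 (SD, n = 4), and the difference from control was -0.57 ± 0.17 (SE), with a 95% interval of -0.92 to -0.21 and a limma adjusted p of 0.0599. It passed without control replicate 3 (adjusted p = 0.0332) or without NEUROG2AQ replicate 4 (0.0410), and not without control replicate 1 (0.118).

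MCM6 read 8.58, 8.94, 8.95 and 8.67 in controls 1 to 4, 8.53, 8.64, 8.34 and 8.13 with NEUROG2, and 8.82, 8.79, 8.83 and 8.79 with NEUROG2AQ. The NEUROG2 arrays overlapped the controls at control replicate 1, the lowest control, whereas the 4 NEUROG2AQ arrays lay close together. The means were 8.79 ± 0.19, 8.41 ± 0.23 and 8.81 ± 0.018 (SD, n = 4). The difference of NEUROG2 from control was -0.38 ± 0.12 (SE), with a limma adjusted p of 0.0875. It passed when control replicate 1 was left out, at -0.44 with an adjusted p of 0.0375, and when NEUROG2 replicate 2 was left out (0.0459).

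MCM2 read 9.66, 9.56, 9.33 and 9.42 in controls 1 to 4, 9.52, 9.13, 9.12 and 9.10 with NEUROG2, and 9.55, 9.43, 9.57 and 9.83 with NEUROG2AQ. NEUROG2 replicate 1 lay among the controls and the other 3 NEUROG2 arrays lay below them. The means were 9.49 ± 0.15, 9.22 ± 0.20 and 9.60 ± 0.17 (SD, n = 4). The difference from control was -0.28 ± 0.12 (SE), with a 95% interval of -0.54 to -0.01 and a limma adjusted p of 0.264.

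MCM5 read 10.25, 10.07, 9.46 and 9.79 in controls 1 to 4, 9.89, 9.67, 9.59 and 9.69 with NEUROG2, and 10.06, 9.69, 9.88 and 10.58 with NEUROG2AQ. Its lowest array of all was control replicate 3, and all NEUROG2 arrays lay within the range of the controls. The means were 9.89 ± 0.35, 9.71 ± 0.12 and 10.05 ± 0.38 (SD, n = 4). The difference of NEUROG2 from control was -0.18 ± 0.19 (SE), with a 95% interval of -0.57 to 0.22 and a limma adjusted p of 0.721, and it was -0.06 without control replicate 1 and -0.32 without control replicate 3. A lowering of MCM5 beyond 0.57 on the log2 scale lies outside that interval.

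Averaged as a group and set against the control mean, MCM2, MCM3, MCM5 and MCM6 lay between -0.49 and -0.14 on the NEUROG2 arrays. CDC45, GINS1 and MCM10 lay between -1.34 and -0.91 on the same arrays. Whether the decline differs between ring subunits and activating factors was not tested, and differences of RMA signals between probe sets also depend on each probe set's response.

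With NEUROG2AQ, none of the 7 genes passed against control in limma, and none did at an unadjusted p under 0.05. Of all genes, 0.0923% passed as lower and 0.0154% as higher, 0.108% together. The groups overlapped for all 7 genes, and 4.64% of all genes had no overlap in either direction. The median difference was 0.07, against 0.01 for all genes. CDC45 differed by 0.07 with a 95% interval of -0.21 to 0.35, GINS1 by -0.11 (-0.36 to 0.13) and MCM10 by -0.05 (-0.46 to 0.35). MCM2 differed by 0.10 (-0.16 to 0.37), MCM3 by 0.13 (-0.23 to 0.49), MCM5 by 0.16 (-0.23 to 0.56) and MCM6 by 0.02 (-0.24 to 0.28). The declines of CDC45, GINS1 and MCM10 seen with NEUROG2 lie outside these intervals. So do the NEUROG2 differences of MCM2, MCM3 and MCM6, at -0.28, -0.57 and -0.38, which did not themselves pass against control. The MCM5 difference of -0.18 with NEUROG2 lies within its interval. Such placements leave out the error of the NEUROG2 differences and are no test of NEUROG2 against NEUROG2AQ. In the direct comparison below, MCM2 and MCM6 did not pass. Changes smaller than the bounds lie within the intervals, and the signs for MCM5, MCM6, MCM10 and CDC45 turned when single arrays were left out. Without NEUROG2AQ replicate 4, MCM2 differed by 0.025, MCM3 by 0.011, MCM5 by -0.012, MCM10 by -0.13 and CDC45 by 0.12. Without control replicate 1, MCM2 differed by 0.16, MCM3 by 0.23, MCM5 by 0.28, MCM6 by -0.047, MCM10 by 0.063 and CDC45 by -0.0075. None of these passed.

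NEUROG2 and NEUROG2AQ were also compared directly, a comparison that shares the NEUROG2 arrays with the first. CDC45, MCM10, GINS1 and MCM3 were lower with NEUROG2, so 4 of 7 genes passed. Of all genes, 4.14% passed as lower and 5.55% as higher here. CDC45 fell by 1.47 ± 0.13 (SE), a 2.76-fold difference with a limma adjusted p of 2.89e-06. MCM10 fell by 1.03 ± 0.19 (adjusted p = 0.00283) and GINS1 by 0.73 ± 0.11 (adjusted p = 0.000729), or 2.05-fold and 1.65-fold. MCM3 fell by 0.69 ± 0.17, or 1.62-fold, with an adjusted p of 0.0200. For MCM3 the call was lost without NEUROG2 replicate 3 (0.0813), NEUROG2 replicate 4 (0.0719), NEUROG2AQ replicate 1 (0.0616) or NEUROG2AQ replicate 4 (0.0655).

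The other ring subunits did not pass in that direct comparison. MCM6 differed by -0.40 ± 0.12 (limma adjusted p = 0.0743) with no overlap between the groups, MCM2 by -0.38 ± 0.12 (0.098) and MCM5 by -0.34 ± 0.19 (0.408). MCM2 passed without NEUROG2 replicate 1 (0.0285) and with the 3'/5' difference as a covariate, at -0.51 (0.0215). MCM6 passed without control replicate 1 (0.0475) or NEUROG2 replicate 2 (0.0395), with trend and robust moderation (0.0467) and with array weights (0.0493). MCM5 was -0.17 without NEUROG2AQ replicate 4 and -0.55 with the 3'/5' covariate, and passed in neither. Unlike that of GAPDH, the 3'/5' difference of actin and EF1A was higher on 3 NEUROG2AQ arrays than on any other. With it as a covariate CDC45, MCM10, GINS1 and MCM3 still passed in limma, at -1.40, -1.16, -0.81 and -0.86 (adjusted p = 2.54e-05, 0.00282, 0.000798 and 0.00611). Groups did not overlap for 5 of the 7 genes, against 9.45% of all genes in that direction. Against control they did not overlap for 4 of 7, and 7.79% of all genes did the same.

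**Figure D2:**
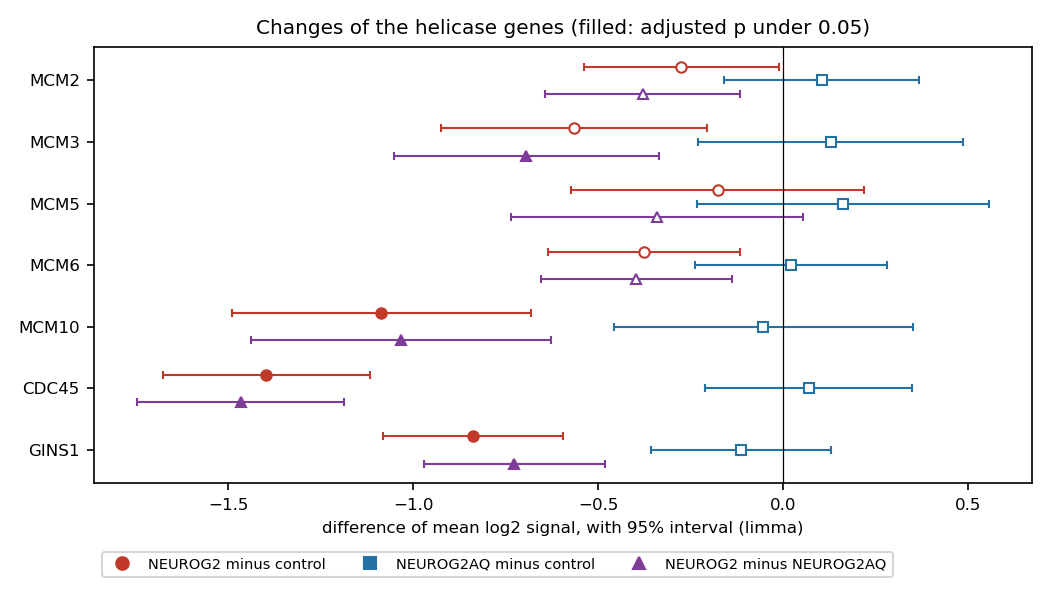
Difference of mean log2 signal (horizontal axis) with its 95% interval for each helicase gene in the 3 comparisons, filled where the adjusted p was under 0.05. CDC45, MCM10 and GINS1 are filled in both comparisons that involve NEUROG2, MCM3 only against NEUROG2AQ, and all NEUROG2AQ intervals against control include 0.

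Of the 7 genes, MCM3, MCM5 and CDC45 had 1 probe set each, and the rest had several. An ending _s_at marks probes that Affymetrix found in more than 1 transcript sequence, and _a_at marks transcripts of one gene. The representative probe sets of MCM2, MCM3, MCM5, MCM6 and MCM10 all end in _s_at, so their signals may include other transcripts. That of GINS1 ends in _a_at and that of CDC45 in the plain _at. None of the 8 further probe sets passed in any comparison. Of all tested probe sets, 6.67% passed in either direction with NEUROG2 against control, 0.0663% with NEUROG2AQ against control and 6.06% with NEUROG2 against NEUROG2AQ. Most of them were dim: the second MCM2 probe set read 1.17 to 1.67, the fourth of MCM6 0.83 to 1.26, and the 3 further GINS1 probe sets 1.45 to 3.37. The second MCM10 probe set, with the plain ending _at, read 2.43 to 2.93, at the level of the array medians. With NEUROG2 it did not fall: it differed by 0.06 from control and by 0.17 from NEUROG2AQ. Averaging all probe sets of each gene instead, GINS1 differed from control by -0.25 with NEUROG2 (limma adjusted p = 0.0449) and from NEUROG2AQ by -0.15 (0.261), which ends the call. MCM10 then differed by -0.51 (0.0178) and -0.43 (0.0482).

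MCM6 was the gene with several bright probe sets, and they differed. The second, with the plain ending _at, read 6.83, 7.93, 7.56 and 6.65 in controls 1 to 4, 6.77, 6.99, 6.74 and 6.64 with NEUROG2, and 7.16, 6.55, 6.97 and 6.65 with NEUROG2AQ. Both the NEUROG2 and the NEUROG2AQ arrays lay near its lower controls, at -0.46 (limma adjusted p = 0.337) with NEUROG2 and -0.41 with NEUROG2AQ. The third, with the ending _s_at, read 4.94, 5.96, 5.65 and 5.30 in controls, 4.88, 4.93, 4.53 and 4.95 with NEUROG2, and 5.45, 5.43, 5.50 and 5.04 with NEUROG2AQ. Its difference from control was -0.64 ± 0.18 with NEUROG2, with an adjusted p of 0.0505. Controls 2 and 3 were the highest of their group in all 3 of these probe sets of MCM6.

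**Figure D3:**
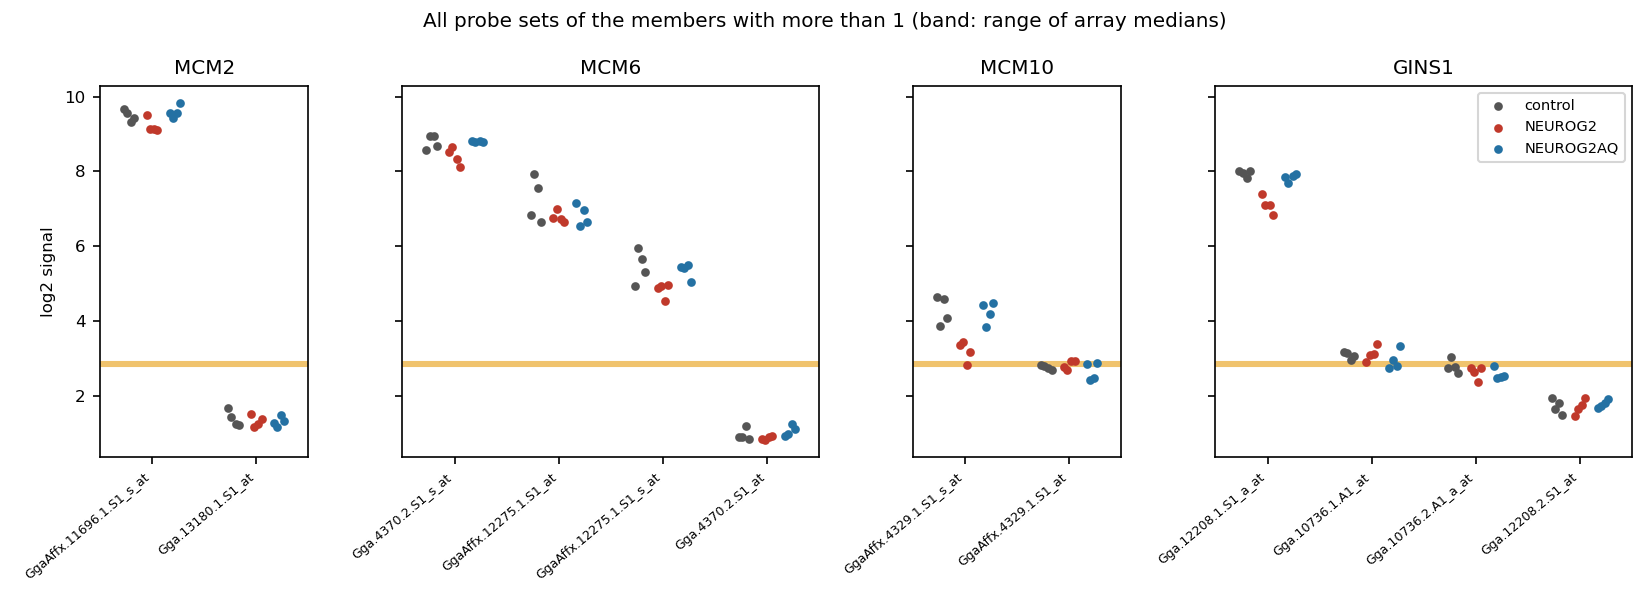
Log2 signal (vertical axis) of every probe set of the 4 genes with more than 1, by group; the band is the range of the array medians. The representative GINS1, MCM10 and MCM2 probe sets lie above the band apart from 1 NEUROG2 value of MCM10, while their other probe sets lie at or below it or just above it.

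Within the NEUROG2 group, the highest array was replicate 1 for 4 of the 7 genes and replicate 2 for the other 3. The mean log2 signal of the 7 genes was 7.56, 7.46, 7.17 and 7.21 on NEUROG2 replicates 1 to 4. Within the control and NEUROG2AQ groups the genes did not all vary alike, but 5 of the 7 peaked on the same arrays. For MCM2, MCM3, MCM5, MCM10 and GINS1, control replicate 1 was the highest control. For the same 5 genes, NEUROG2AQ replicate 4 was the highest of its group. MCM2, MCM3 and MCM5 shared an order among the controls, with replicate 1 highest, then 2, 4 and 3, and NEUROG2AQ replicate 4 was their highest array of all 12. MCM6 and CDC45 had their lowest control in replicate 1. MCM2, MCM3 and MCM5 deviated by 0.17, 0.32 and 0.36 from the control mean on control replicate 1. MCM10 deviated there by 0.35, GINS1 by 0.059, MCM6 by -0.20 and CDC45 by -0.23. NEUROG2AQ replicate 4, the array that stood apart in the 3'/5' difference, lay 0.24, 0.35 and 0.52 above its group mean for MCM2, MCM3 and MCM5. It lay 0.24 above that mean for MCM10 and 0.095 above for GINS1, and -0.16 from it for CDC45. The somite marker mean of control replicate 1 lay 0.69 above its group mean and that of the notochord and floor plate 0.66 above. The part of these in the helicase values was not tested, and leaving out both arrays left CDC45, GINS1 and MCM10 at -1.47, -0.82 and -0.97 against control, each passing in limma (adjusted p = 4.87e-06, 0.000595 and 0.00362).

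Over the 12 arrays each gene was correlated with the mean of the other 6, which describes shared groups as well as shared variation. The Pearson coefficients were 0.93 for GINS1, 0.91 for MCM3, 0.89 for MCM10, 0.86 for CDC45, 0.84 for MCM2, 0.77 for MCM6 and 0.55 for MCM5.

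**Figure D4:**
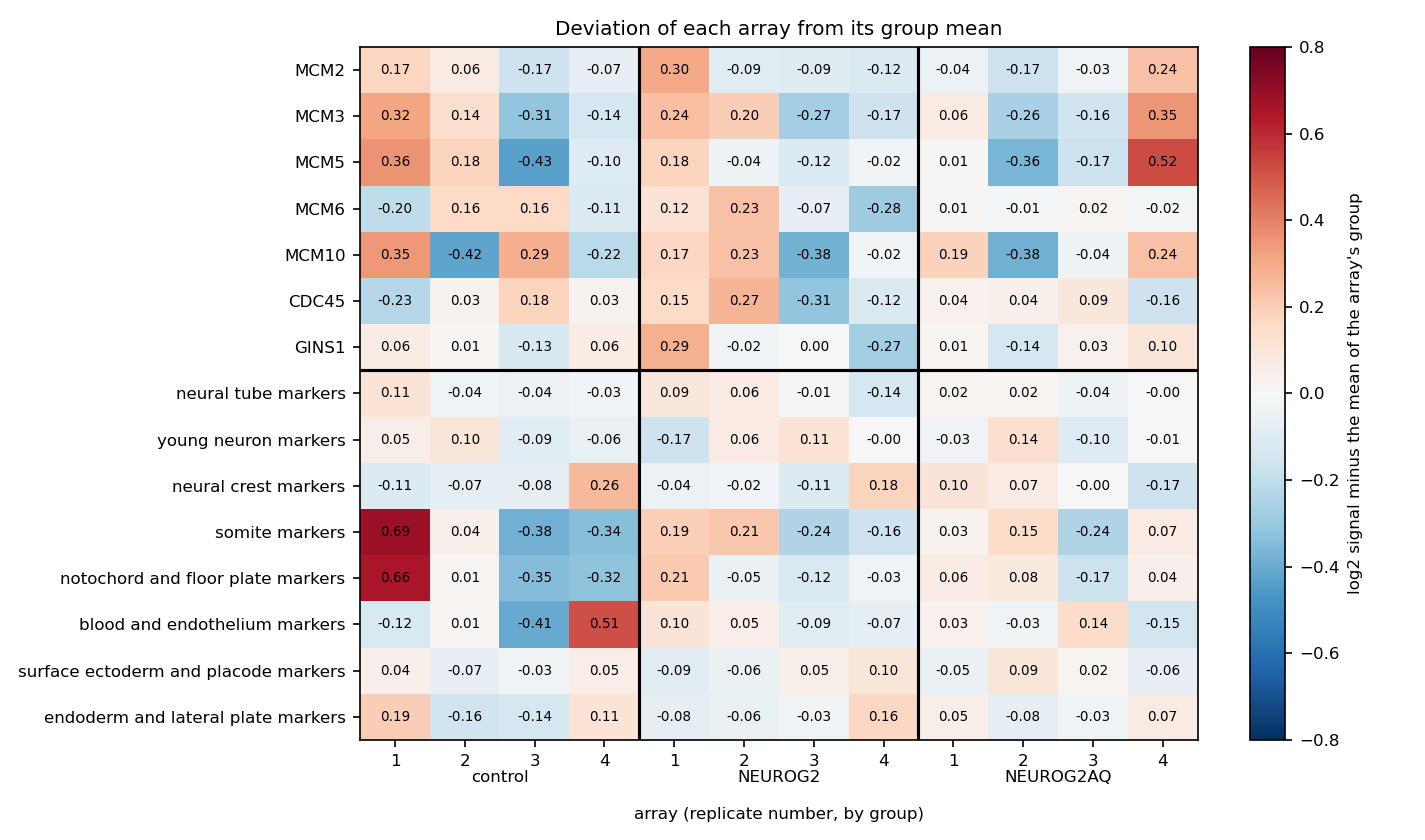
Deviation of each array's log2 signal from the mean of its group for the helicase genes (top) and the mean of each marker list (bottom). Control replicate 1 is high for MCM2, MCM3, MCM5 and MCM10, low for MCM6 and CDC45, and high for somite (0.69) and notochord markers (0.66).

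Markers of other cell types also differed between the groups. A rise of a marker does not tell more cells of a type from more of its RNA per cell. Of 10 young neuron markers, 8 rose with NEUROG2 against control, with list means of 7.76 to 8.04 against 6.15 to 6.33, and 3 fell with NEUROG2AQ, with means of 5.64 to 5.88. Over all genes, 5.21% rose and 5.37% fell with NEUROG2, and 0.0923% fell with NEUROG2AQ. Of 10 neural crest markers, 5 fell with NEUROG2, from list means of 6.38 to 6.75 down to 5.74 to 6.04, and none passed with NEUROG2AQ, where 1 was lower and 2 were higher at an unadjusted p under 0.05. Of 10 neural tube markers, 6 fell with NEUROG2. With NEUROG2AQ none of them passed in limma, but all 10 differences were below 0, with a median of -0.44. Of these 10, 9 were lower at an unadjusted p under 0.05 and 5 did not overlap the controls. Of all 13008 genes, 6228 differences were below 0 with NEUROG2AQ and 351 genes lay below every control. At an unadjusted p under 0.05, 631 of all genes were lower and 407 higher with NEUROG2AQ. No somite marker and 1 of 8 notochord and floor plate markers (lower) passed with NEUROG2. As lower there also passed 1 of 9 blood and endothelium and 1 of 7 surface ectoderm and placode markers. With NEUROG2AQ none of 10 somite markers passed in limma, with a median difference of -0.57. Of them, 4 were lower at an unadjusted p under 0.05 and 2 lay below every control, control replicate 1 included. At that limit 2 of 8 notochord and floor plate, 3 of 9 blood and endothelium and 6 of 10 young neuron markers were also lower with NEUROG2AQ. All 8 notochord and floor plate differences were below 0 there. No surface ectoderm and placode or endoderm and lateral plate marker was lower at that limit. The part of these cell types in the helicase genes' lower signal was not tested.

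Other genes of the same process were taken from 5 lists holding 56 genes, 49 of them measured. With NEUROG2, 21 of 49 fell against control, where 5.37% of all genes fell, and none passed as higher, with a median of -0.34 on the log2 scale. With NEUROG2AQ none of the 49 passed in limma, while 4 were lower and 2 higher at an unadjusted p under 0.05. Of all 13008 genes, 631 were lower and 407 higher at that limit. Against NEUROG2AQ, 22 were lower with NEUROG2, where 4.14% of all genes were lower, and 1 was higher: CCND2, a D-type cyclin, at 0.38 ± 0.09 (adjusted p = 0.0163), named here after its value was seen.

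Origin licensing genes, whose products load the ring or, for GMNN, restrain its loading, gave 5 lower of 8 with NEUROG2. Their median was -0.54, and 5.37% of all genes were lower. CDT1, the loader that brings the ring to origins, fell by 0.85 ± 0.16 (SE; limma adjusted p = 0.00342). The origin recognition subunits ORC1, ORC2 and ORC6 fell by 0.80 ± 0.12, 0.73 ± 0.11 and 0.58 ± 0.12 (adjusted p = 0.000645, 0.000748 and 0.00512). GMNN, which holds CDT1 in check, was among the genes named against NEUROG2AQ, where it fell by 0.73 (adjusted p = 0.00039). ORC1 fell there by 0.94, CDT1 by 0.98 and ORC6 by 0.69, and with NEUROG2AQ against control the largest differences were 0.23 for GMNN and 0.15 for ORC1.

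Origin firing genes, which recruit CDC45 and GINS, gave 4 lower of 7 with NEUROG2, with a median of -0.50, against 5.37% of all genes. MTBP and TICRR, partners in bringing CDC45 to origins, fell by 1.06 ± 0.18 (limma adjusted p = 0.00121) and 0.59 ± 0.12 (0.00735). CDC7, the kinase that phosphorylates the ring, fell by 0.74 ± 0.17 (0.0150), and DONSON, which delivers GINS, fell by 0.50 ± 0.13 (0.0350). The CDC7 call was lost without NEUROG2 replicate 3 or 4 (up to 0.0613). DONSON did not pass when any of control replicates 1 and 4, NEUROG2 replicates 1, 3 and 4 or NEUROG2AQ replicate 1 was left out (up to 0.116). Against NEUROG2AQ, where 4.14% of all genes were lower, the same 4 genes passed. They stood at -1.09, -0.50, -0.79 and -0.55 for MTBP, TICRR, CDC7 and DONSON. There the DONSON call was lost without NEUROG2 replicate 3 or 4 or NEUROG2AQ replicate 1, 3 or 4 (up to 0.0772), and the TICRR call without NEUROG2 replicate 2 or 4 or NEUROG2AQ replicate 4 (up to 0.0843). With NEUROG2AQ against control, DBF4, the activating partner of CDC7, and TOPBP1, a firing scaffold, differed most, by 0.25 and 0.23, and did not pass.

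Relatives and partners of the helicase gave 2 lower of 9 with NEUROG2, with a median of -0.27, against 5.37% of all genes. CLSPN, a fork protein that also serves the replication checkpoint, fell by 1.02 ± 0.22 (limma adjusted p = 0.00995). GINS3, another GINS subunit, fell by 0.33 ± 0.09 (0.0319), and its call was lost when any of control replicates 2 to 4 or NEUROG2 replicates 1, 3 and 4 was left out (up to 0.105). Against NEUROG2AQ, where 4.14% of all genes were lower, 4 of 9 were lower: CLSPN by 1.12, MCM9 by 0.70, WDHD1 by 0.44 and GINS3 by 0.43. MCM9 is a relative of the ring subunits that acts in DNA repair, and WDHD1 links the helicase to the polymerases. The MCM9 call was lost without NEUROG2 replicate 3 (adjusted p = 0.0527), and the WDHD1 call without NEUROG2 replicate 1, 3 or 4 or NEUROG2AQ replicate 2, 3 or 4 (up to 0.0914). With NEUROG2AQ against control, WDHD1 at 0.28 and MCM8 at -0.22 differed most and did not pass.

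Helicase unloading genes, which take the ring off the DNA at the end of replication, gave 1 lower of 6 with NEUROG2, with a median of -0.34, against 5.37% of all genes. UBXN7, an adaptor of the unloading enzyme, fell by 0.47 ± 0.11 (limma adjusted p = 0.0120). Against NEUROG2AQ none of 6 passed, with TRAIP at -0.41 (0.162) and LRR1 at -0.39 (0.0851). CUL2 at 0.26 and UBXN7 at -0.21 differed most between NEUROG2AQ and control and did not pass.

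Cell cycle regulators of replication genes gave 9 lower of 19 with NEUROG2, with a median of -0.34, against 5.37% of all genes. MYC and MYCN, growth-promoting transcription factors, fell by 1.65 ± 0.16 and 1.23 ± 0.10 (limma adjusted p = 1.15e-05 and 1.19e-06). E2F8, a repressor of the E2F family whose own transcript is made around S phase, fell by 1.30 ± 0.19 (0.000329). CCNE2, a cyclin of S phase entry, fell by 0.87 ± 0.10 (6.59e-05). Against NEUROG2AQ these 4 fell by 1.27, 0.92, 1.44 and 1.05, and 9 of 19 were lower, where 4.14% of all genes were lower. With NEUROG2AQ against control, CCNE1 at -0.39 and MYC at -0.37 differed most and did not pass. Several of these genes have further probe sets, none of which passed in the opposite direction. None of the further ones passed for UBXN7 (5), GINS3 (2), MTBP (2), E2F8 (2), CDC7 (1) and DONSON (1), in each comparison in which the gene is named as lower. For TICRR 1 of 3 passed, and the 1 further CLSPN probe set passed against control and not against NEUROG2AQ.

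**Figure D5:**
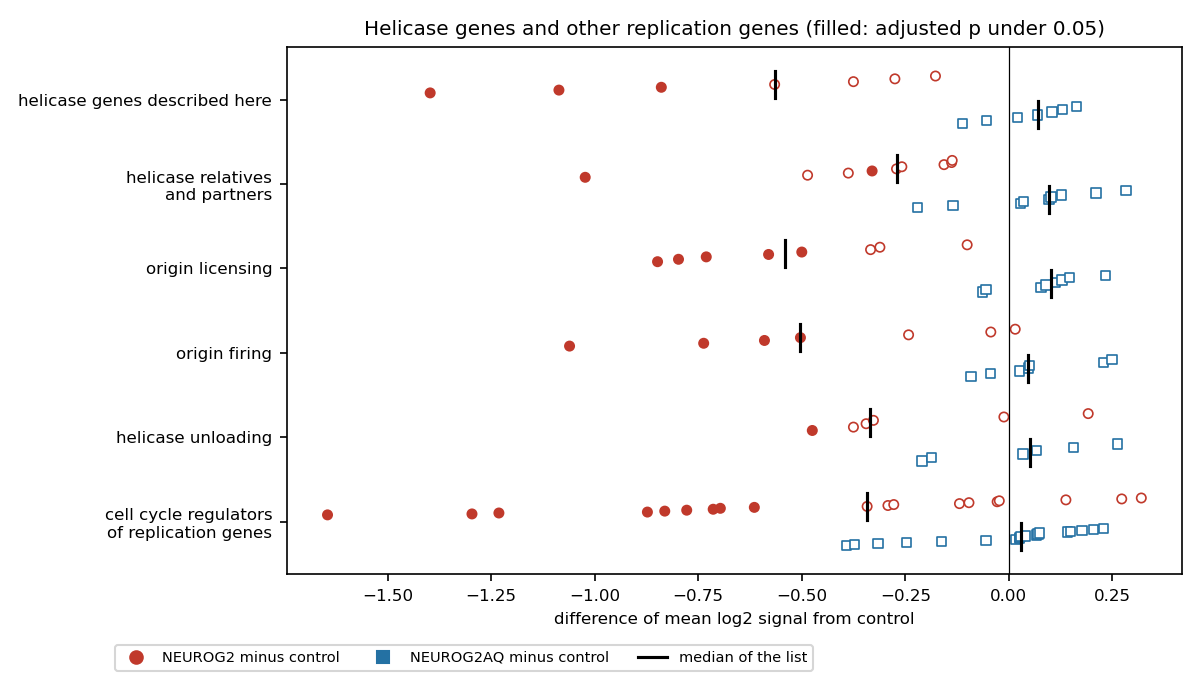
Difference of mean log2 signal from control (horizontal axis) for each measured gene of 6 lists; circles are NEUROG2 and squares NEUROG2AQ, filled where the adjusted p was under 0.05, and the bar is the list's median. All lists have a median below 0 with NEUROG2, from -0.57 to -0.27, and between 0.03 and 0.10 with NEUROG2AQ.

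The genes whose pattern was most like the mean of the 7 helicase genes were sought among 8987 other genes, by Pearson correlation over the 12 arrays, as a description. The arrays share 3 groups, so a gene that is low with NEUROG2 alone scores high. IPO9, an importin, CENPO, a kinetochore protein, and TK1, thymidine kinase of the nucleotide supply, each had a coefficient of 0.98. MBD4, a DNA repair glycosylase, CHTF8, a clamp loader subunit, and CDT1 had 0.97. CKS1B, a partner of cyclin-dependent kinases, and SRSF7, a splicing factor, had 0.96. Without control replicate 1 and NEUROG2AQ replicate 4, 3 of these 8 stayed among the 8 most alike. The most opposed were MMP28, a matrix metalloproteinase, at -0.98, NR4A2, a nuclear receptor of neurons, CREB3L2 and TMBIM4 at -0.97, and CYP2D6 at -0.96.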

How the data were processed

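The authors deposited 1 table of log2 signals per probe set. Per the submitters' processing notes, the tools were GCOS, affy and RMA, with no versions. The labels give no base for the log; base 2 was inferred from the range of 0.49 to 13.97. Values were used as deposited, so background, normalisation between arrays and summary over probes are the authors'. RMA compresses differences of dim probe sets.

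Of 38535 probe sets, 37693 chicken ones were tested, and 96 Affymetrix controls and 746 others were left out. Of the tested ones, 27166 had 1 symbol, 177 several and 10350 none, from the platform annotation, updated by gene identifier to a RefSeq table of GRCg7b used for names alone. The probe set with the highest mean over the arrays represents a gene.

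One limma 3.58.1 fit (lmFit, eBayes; R 4.3.3) held all 12 arrays, with group as its single term and 9 residual degrees of freedom. Tests were two-sided at 0.05, and p-values were adjusted by Benjamini-Hochberg over all probe sets. The fit was tested on simulated data. Fold values are 2 to the power of the log2 difference.

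The members, lists and alternatives were chosen with earlier results of these data known. Every helicase gene with a probe set is named. Of each pathway list, up to 4 passing genes with the largest change are named, or the 2 largest where none passed. For likeness, the 8 highest and 5 lowest correlations are named, without clone names and LOC numbers. They were taken among genes whose mean over all arrays was at or above the median of the probe sets. Replicates are biological per the labels. Sequences of the members were not used here.

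Alternatives left out the 40% dimmest probe sets, weighted the arrays, set eBayes to trend and robust, fitted only the 2 groups compared, added a replicate block, rescaled by median centring or cyclic loess, took 1 probe set or the mean of the probe sets per gene, asked for a log2 difference of at least 1, took the 3'/5' difference as a covariate, or left out arrays.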

Additional observations from a re-analysis of the deposited data

Results flagged for a closer look

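Single arrays that lay far from the other 3 of their group were sought in 45 groups, the 15 probe sets in each of the 3 groups of arrays, and 4 were found, where chance gives about 1 in 20. The MCM2 probe set behind the reported values read 9.52 on NEUROG2 replicate 1, against 9.10 to 9.13 on the other NEUROG2 arrays. The third MCM6 probe set by signal read 5.04 on NEUROG2AQ replicate 4, against 5.43 to 5.50. The dimmest MCM6 probe set read 1.19 on control replicate 3, against 0.86 to 0.91. The third GINS1 probe set by signal read 2.80 on NEUROG2AQ replicate 1, against 2.48 to 2.53.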

How the results depend on the processing

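Each value was refitted under 24 alternatives, 12 of which left out 1 array. CDC45 and MCM10 passed as lower with NEUROG2 in all 24, against control and against NEUROG2AQ. GINS1 passed in 23 and 22: it missed the fold limit of 1 on the log2 scale in both comparisons, and with the mean of its probe sets it was -0.15 against NEUROG2AQ (limma adjusted p = 0.261), where dim probe sets enter the mean. The count of helicase genes lower with NEUROG2 than control, 3, was 2 with the fold limit and 3 to 4 when single arrays were left out. It was 5 with array weights, where MCM3 (0.0407) and MCM6 (0.0369) passed in limma. Against NEUROG2AQ, the count of 4 was 2 with the fold limit and 3 to 5 with single arrays left out. The pathway counts of 21 and 22 were both 5 with the fold limit, and 18 to 23 and 18 to 27 with single arrays left out. With NEUROG2AQ against control, both counts were 0 under every alternative, and uncalled differences changed sign: MCM6 was -0.019 with array weights, -0.10 with the mean of its probe sets and -0.04 without both control replicate 1 and NEUROG2AQ replicate 4, and MCM10 was 0.043 with array weights and 0.031 with the 3'/5' covariate. With single arrays left out, MCM5 ranged from -0.012 to 0.28, MCM6 from -0.047 to 0.075, MCM10 from -0.19 to 0.074 and CDC45 from -0.0075 to 0.13. The cause was not tested. Whether the replicate numbers pair the arrays is not settled by these values, because same-numbered pairs correlated weakly and in both directions. The 12 same-numbered pairs correlated at -0.30 to 0.23 in their deviations, 5 over 0.1. Differently numbered pairs from different groups ranged more widely, from -0.41 to 0.42. The highest of these was control replicate 1 with NEUROG2AQ replicate 4, the arrays that stood apart. Of the 12 arrays, 5 correlated best with their own number. NEUROG2 replicates 1 to 4 correlated with the same-numbered controls at 0.18, 0.23, -0.02 and 0.13. With the replicate block, MCM3 passed against control (0.0408), the helicase counts were 4, 0 and 4 and the pathway counts 20, 0 and 21. The MCM3 difference from control also passed with trend and robust (0.0417), on the brighter probe sets left after dropping the dimmest 40% (0.0495), with 1 probe set (0.0446) or the mean of the probe sets (0.0454) per gene and with the 3'/5' covariate (0.0235). Over all genes, 699 were lower and 678 higher with NEUROG2, and 95 and 216 with the fold limit; the lower count was 441 without NEUROG2 replicate 3 and 1099 without both arrays that stood apart. Against NEUROG2AQ, 538 lower and 722 higher became 98 and 244 with the fold limit, and the lower count was 358 and 842 without the same arrays. For NEUROG2AQ against control, 12 lower and 2 higher became 24 and 4 with trend and robust, 3 lower with only the 2 groups compared and 6 lower with the fold limit. The higher count was 4 with the mean of the probe sets or without both arrays, and with single arrays left out the counts were 4 to 16 lower and 2 to 4 higher. Scaling by median centring or cyclic loess moved the share of higher calls by under 10 percentage points, and no difference of a helicase gene changed sign under them. Signals near the array medians, as for MCM10 with NEUROG2, limit how far a decline can be measured.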
